A study of Mus musculus with 3 samples.

Results

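Malat1 and Neat1 are long non-coding RNAs that stay in the nucleus. They were taken by symbol from the gene lists of 3 single-cell RNA libraries, as 2 of the 32285 genes listed there. The pair was selected on its measured levels in these libraries, so the levels, their values outside cells and their relation to mitochondrial RNA are given as a description and were not tested. The cells were E14 mouse embryonic stem cells of 129/Ola background, grown in serum with LIF and treated from 24 h after seeding. The control received DMSO, the solvent, for 6 h, and the treated cultures received tubercidin at 10 µM for 3 h or for 6 h. Tubercidin is an adenosine analogue that cells can build into RNA in place of adenosine. Each condition is 1 library, made with 10x Genomics Chromium 3′ chemistry from fresh cells of 1 line, so no difference between conditions has a replicate to set it against.

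Malat1 collects in nuclear speckles, the bodies that store splicing factors, and is among the most abundant nuclear RNAs of many mammalian cells. Neat1 is the RNA scaffold of paraspeckles, and the neighbouring gene on the same strand. The gene makes a short RNA with an ordinary poly(A) tail and a long one that holds the paraspeckle together. Pluripotent stem cells make mostly the short form and have few paraspeckles. The 3′ ends of Malat1 and of long Neat1 are cut by RNase P, the enzyme that trims tRNA precursors, and are protected by a triple helix of U-rich stretches with an A-rich tract in place of a poly(A) tail.

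The assay primes on poly(A), so these ends bear on what it can count. In GRCm38, the build named by the submitters' processing notes as mm10, Malat1 (ENSMUSG00000092341) lies on the minus strand at chr19:5795690-5802672 and Neat1 (ENSMUSG00000092274) on the minus strand at chr19:5824708-5845478. In the GENCODE annotation of that build, Malat1-201 is a single exon of 6983 bases, the long Neat1-201 a single exon of 20771 bases, and the short Neat1-202 has 2 exons and 3004 bases. The sequences below come from those transcripts, 5′ to 3′ on the transcribed strand. Capitals mark the U-rich motifs (T in the DNA letters) and the A-rich tract in the first pair, the poly(A) signal AATAAA in the next pair, and the runs of A in the last.
Malat1 RNase P-type end, chr19:5795982-5796072: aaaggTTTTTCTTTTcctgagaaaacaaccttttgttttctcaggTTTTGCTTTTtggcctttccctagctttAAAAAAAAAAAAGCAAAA
long Neat1 end, chr19:5824708-5824807: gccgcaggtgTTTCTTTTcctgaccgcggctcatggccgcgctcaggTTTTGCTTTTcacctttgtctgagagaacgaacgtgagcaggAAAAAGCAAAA
Malat1 annotated end, chr19:5795690-5795729: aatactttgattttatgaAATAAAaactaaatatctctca
short Neat1 end, chr19:5842307-5842346: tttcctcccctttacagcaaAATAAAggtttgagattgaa
long Neat1 internal A-rich stretch, chr19:5834093-5834138: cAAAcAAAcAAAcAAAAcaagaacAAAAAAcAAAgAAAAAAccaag

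The last 10 bases of long Neat1, AAAAGCAAAA, also end the A-rich tract of Malat1, and their reverse complement TTTTGCTTTT lies upstream in both, each motif once per transcript. Either motif is found in 0.060% of the 100-base pieces of all annotated mouse transcripts, searched on the transcribed strand only. In Malat1 the A-rich motif ends 292 bases before the annotated end, and AATAAA stands 16 bases before that end. The signal AATAAA was present in the last 40 bases of 25.8% of all transcripts. A window of 20 bases with at least 15 A occurred at 1 place in Malat1, overlapping the tract shown, and at 1 place in long Neat1, the internal stretch shown, with none in short Neat1. Such a window was present in 16.7% of all transcripts and in 56.9% of those of at least 5000 bases. The deposited counts are per gene, so they separate neither the 2 forms of Neat1 nor the ends of Malat1.

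The unit throughout is the UMI, a tagged RNA molecule counted once. Called cells are barcodes with enough UMIs and genes and at most 20% mitochondrial UMIs: 2031 control cells, 2365 after 3 h and 2926 after 6 h. These cells held 104892739, 29892000 and 24681924 UMIs. The median cell had 48452, 11877 and 8004.5 UMIs, so the control median exceeded that of the treated libraries 4.08-fold (3 h) and 6.05-fold (6 h). Less RNA per cell and fewer reads per cell cannot be told apart here, since numbers of reads were not used. Each pair of libraries shares 1 cell barcode. The 10 stem cell markers checked, among them Pou5f1 and Sox2, were all detected in every library and summed to 4718, 5403 and 4037 UMIs per 1000000 UMIs (CPM, the unit of level used below), against at most 10.8 CPM for any list of primitive endoderm, fibroblast, trophoblast or 2-cell-like markers. All intervals given are 95% and cover counting error only.

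As a share of all UMIs, Malat1 exceeded the control slightly after 3 h and fell short of it after 6 h. It held 334058 UMIs in control cells, or 3185 CPM (interval 3174 to 3196), 108064 UMIs at 3 h, or 3615 CPM (3594 to 3637), and 58125 UMIs at 6 h, or 2355 CPM (2336 to 2374). The intervals of the 3 libraries do not overlap, with 3 h highest and 6 h lowest. The log2 ratio of CPM + 1 to the control was 0.18 at 3 h (interval 0.17 to 0.19 without the pseudocount, 1.14-fold higher) and -0.44 at 6 h (-0.45 to -0.42, 1.35-fold lower). From 3 h to 6 h it was -0.62 (1.53-fold). Of the 7884 genes whose mean level reached 10 CPM, 112 had a lower ratio than Malat1 in that last comparison.

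Neat1 was higher in both treated libraries. It held 7626 UMIs in the control, or 72.7 CPM (71.1 to 74.4), 3079 at 3 h, or 103 CPM (99.4 to 107), and 2982 at 6 h, or 121 CPM (117 to 125). The order was control, 3 h, 6 h, with no overlap of these intervals. The log2 ratio to the control was 0.50 at 3 h (0.44 to 0.56, 1.41-fold) and 0.72 at 6 h (0.67 to 0.79, 1.65-fold). From 3 h to 6 h it was 0.23 (0.16 to 0.30). At 3 h 408 genes, and at 6 h 377 genes, had a higher ratio to the control than Neat1.

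**Figure D1:**
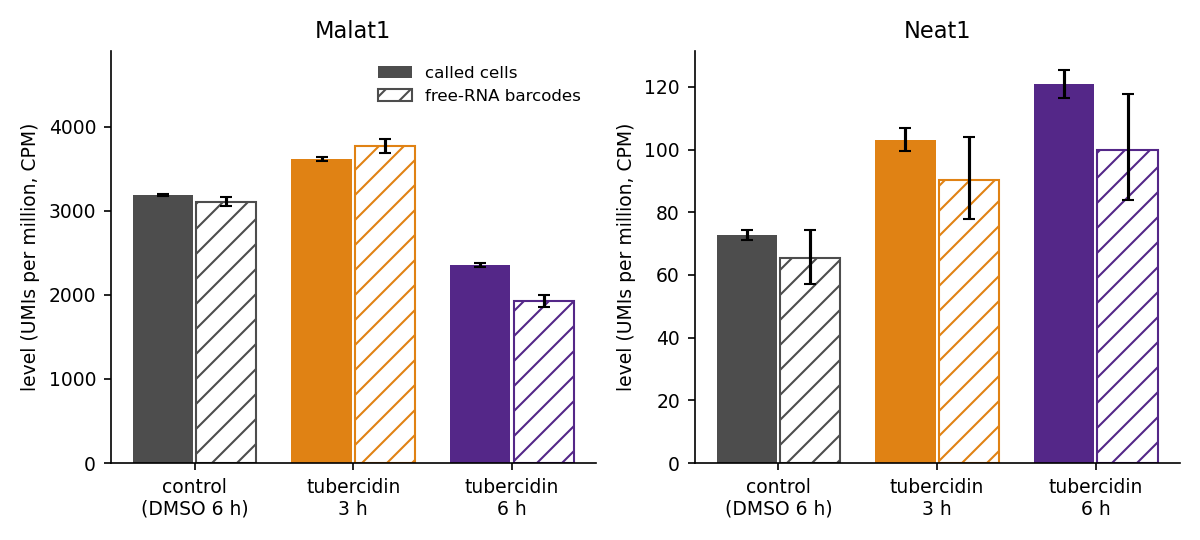
Levels of Malat1 (left) and Neat1 (right) in CPM in called cells (filled bars) and in free-RNA barcodes ranked after 5000 and up to 15000 by UMIs (hatched bars) of the 3 libraries. Error bars are 95% Poisson intervals of counting error, with 1 library per condition. Malat1 is highest at 3 h (3615 CPM in cells) and lowest at 6 h (2355 CPM), while Neat1 goes from 72.7 to 121 CPM in cells, and the free-RNA bars stand in the same order.

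Neither RNA reached 2-fold in any of these comparisons. A 2-fold excess over the control was seen in 0.888% of the genes at 3 h and in 2.33% at 6 h, and a 2-fold deficit in 5.54% and 4.41%. From 3 h to 6 h these shares were 1.64% upward and 0.165% downward. The median log2 ratio of all genes was -0.27 at 3 h, -0.12 at 6 h and 0.14 between them. Relative to that median Malat1 stood 0.45 higher at 3 h and 0.32 lower at 6 h on the log2 scale, and Neat1 0.77 and 0.84 higher.

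**Figure D2:**
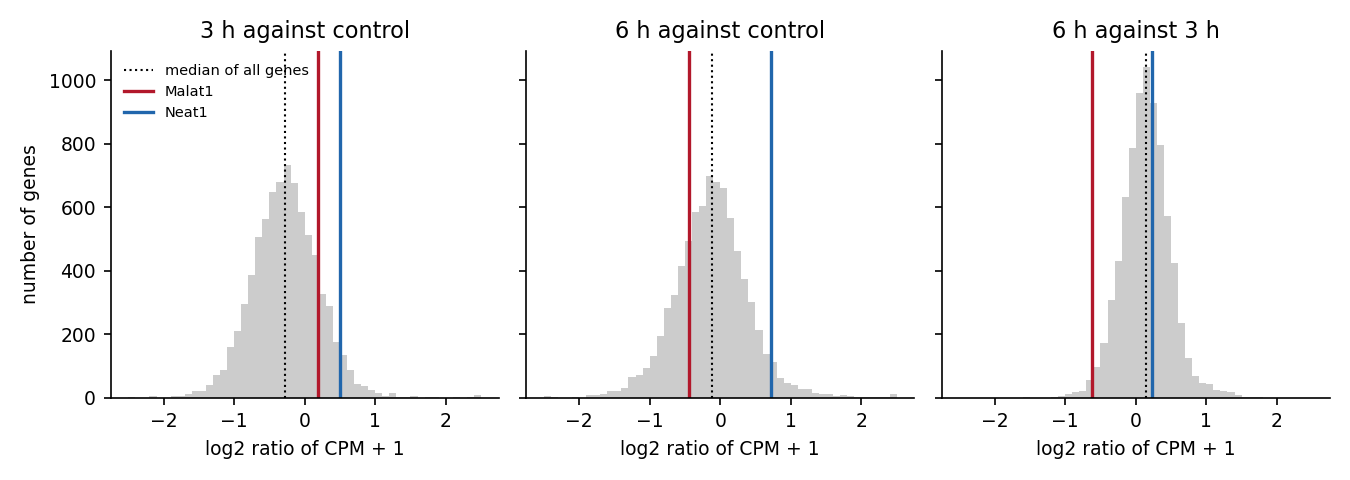
Numbers of genes by log2 ratio of CPM + 1 for 7884 genes in the 3 comparisons between libraries, with Malat1 (red), Neat1 (blue) and the median of all genes (dotted). Ratios beyond 2.5 in either direction are drawn in the end bins. Malat1 lies right of the median at 3 h (0.18 against -0.27) and in the left tail between 6 h and 3 h (-0.62 against 0.14), and Neat1 lies in the right tail at both times.

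The choice of scaling moved these values. Median-of-ratios factors and TMM factors raised the median ratio of all genes at 3 h by 0.23 and 0.19 on the log2 scale. They changed the median at 6 h by 0.01 and -0.03. Malat1 then stood at 0.42 and 0.37 at 3 h and at -0.42 and -0.47 at 6 h, so its directions were kept. Neat1 was at 0.74 and 0.69 at 3 h, the same values as at 6 h, so the step from 3 h to 6 h in CPM shrank to 0.00 and 0.01. Per cell, with no scaling for depth, both RNAs were lower after tubercidin, as were almost all genes: the mean was 164, 45.7 and 19.9 Malat1 UMIs and 3.75, 1.302 and 1.02 Neat1 UMIs per cell, in the order control, 3 h, 6 h. The median of all genes was -2.26 at 3 h and -2.66 at 6 h on that scale, against -1.85 and -3.05 for Malat1 and -1.52 and -1.86 for Neat1.

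Outside cells both RNAs were present at close to their level in cells. The measure here was the 10000 barcodes of each library ranked after 5000 and up to 15000 by UMIs, which held a median of 343, 210 and 138 UMIs and were taken as droplets with free RNA only. Malat1 stood there at 3109 CPM (control), 3768 (3 h) and 1923 (6 h). The log2 ratio to the cells of the same library was -0.03, 0.06 and -0.29. Neat1 stood at 65.4, 90.3 and 99.8 CPM, with log2 ratios to cells of -0.15, -0.19 and -0.27. The Neat1 values depend on the barcodes taken: over all barcodes ranked after 15000 it stood above the cells, at 0.53, 0.53 and 0.43. Those barcodes are nearly empty, and the ones ranked after 15000 and up to 50000 had a median of 7, 3 and 10 UMIs. In these Neat1 stood at 81.2, 114 and 115 CPM, against 72.7, 103 and 121 CPM in cells. The median gene was further from the cells than Malat1 in every library, at -0.25, -0.40 and -0.36. Neither RNA was past 2-fold, as were 0.901% of genes upward and 0.622% downward in the control, 0.469% and 7.84% at 3 h, and 0.609% and 5.85% at 6 h.

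The free RNA kept the order of the libraries that the cells had. Free Malat1 had a log2 ratio to free Malat1 of the control of 0.28 (0.24 to 0.32) at 3 h and -0.69 (-0.75 to -0.63) at 6 h. Free Neat1 was at 0.46 (0.18 to 0.75) and 0.60 (0.30 to 0.92), and its interval between 6 h and 3 h, -0.18 to 0.46, includes no difference. Other nuclear lncRNAs, 8 in all, had a median log2 ratio of free RNA to cells of 0.06 (control), -0.63 (3 h) and -0.82 (6 h). Mitochondrially encoded RNAs went from 0.24 in the control to -1.37 and -0.78 in the treated libraries. Ribosomal protein mRNAs were at -0.43, 0.26 and -0.13. A droplet of this kind held on average 0.656%, 1.76% and 1.37% of the Malat1 UMIs of a cell, and 0.605%, 1.48% and 1.38% of the Neat1 UMIs. Malat1 had a UMI in 63.8%, 53.8% and 23.2% of these droplets and Neat1 in 2.22%, 1.92% and 1.39%. Subtracting free RNA at 10% of the UMIs gave Malat1 0.20 at 3 h and -0.40 at 6 h.

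Over single cells Malat1 was near-universal, and cells without a UMI of it were most frequent at 6 h. To compare cells of unlike depth, each was thinned at random to 4000 UMIs, which left out 0 cells of the control, 122 at 3 h and 284 at 6 h. A median thinned cell held 10 (control), 12 (3 h) and 7 (6 h) Malat1 UMIs. The 5th and 95th percentiles were 3 and 28, 2 and 35, and 1 and 22. The library distributions thus overlapped over most of their range. At least 1 Malat1 UMI was found in 99.4% (98.97% to 99.7%), 99.2% (98.8% to 99.6%) and 96.2% (95.4% to 96.9%) of the thinned cells, and at full depth in all but 3, 1 and 80 cells.

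The thinned cells without a Malat1 UMI numbered 12, 17 and 101. The 101 cells at 6 h had a median of 6344 UMIs before thinning, against 8427 in the other cells of that library. Their median ribosomal protein share was 27.2% against 26.3%, and their median mitochondrial share 2.88% against 2.78%. Neat1 averaged 0.158 UMIs in them (0.0905 to 0.257) and 0.471 (0.445 to 0.499) in the rest. At 6 h, 0, 1 and 2 thinned Malat1 UMIs were held by 101, 172 and 208 cells, and 80 cells had none at full depth. Whether the cells without Malat1 form a group apart from the others was not tested. These cells were described after their values had been seen. The part that depth plays in them was not tested.

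Neat1 was sparse in every library. A UMI was found in 23.1% (21.3% to 24.99%) of thinned control cells, 31.7% (29.7% to 33.6%) at 3 h and 32.3% (30.5% to 34.1%) at 6 h. The shares at 3 h and 6 h have overlapping intervals, both above that of the control. In 10 other random draws of the thinning the shares ranged from 19.99% to 22.4%, 30.1% to 32.7% and 31.5% to 33.6%, so the control value given is above those of the other draws. Without thinning the order was the reverse, 76.4%, 61.6% and 49.6%, at the median depths given above, and the free droplets gave the 2.22%, 1.92% and 1.39% already stated. At least 3 UMIs were found in 1.28%, 2.10% and 2.80% of the thinned cells, and the highest cell held 10, 8 and 6.

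**Figure D3:**
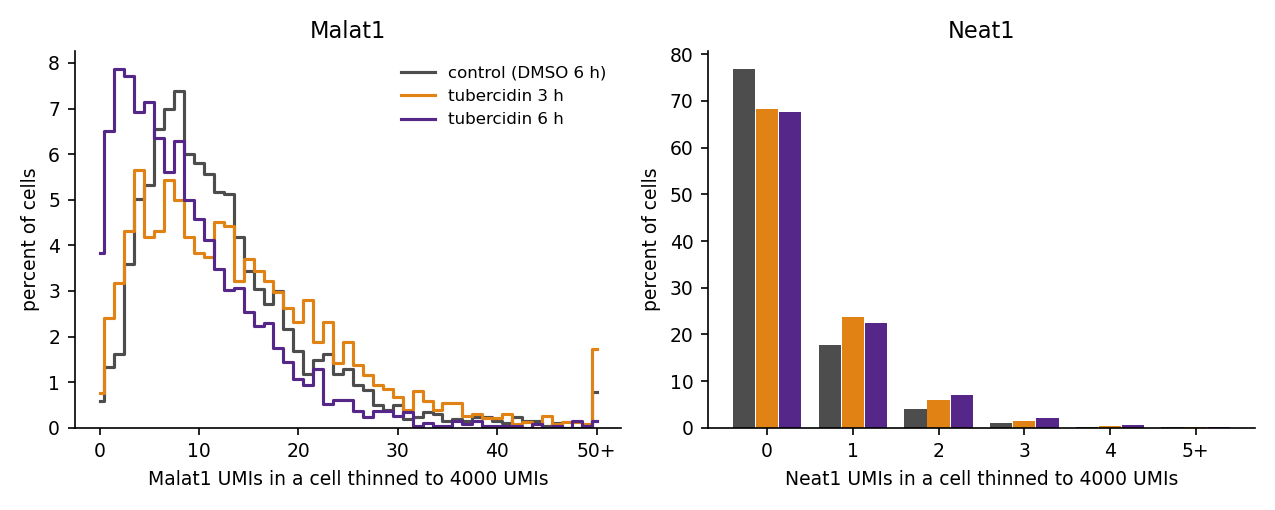
Percent of cells by number of Malat1 UMIs (left) and Neat1 UMIs (right) after each cell was thinned to 4000 UMIs, for the 3 libraries, with cells of 50 or more Malat1 UMIs or 5 or more Neat1 UMIs in the last class. For Malat1 the 6 h cells are shifted to low counts (median 7 against 10 in the control). In UMIs, 3 h has the widest range from the 5th to the 95th percentile (2 to 35). For Neat1 most cells hold no UMI, and the control has the largest share at 0.

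Malat1 varied between cells beyond counting. Its coefficient of variation over thinned cells was 0.747, 0.794 and 0.849, and its Fano factor, the variance over the mean, was 6.999, 9.12 and 6.39 against a median of 1.04, 1.06 and 1.06 over the genes averaging at least 0.2 thinned UMIs. That placed it at rank 3, 3 and 2 among 3309, 2810 and 3073 genes. The Fano factor grows with the mean where cells differ by a constant fold. With Poisson noise taken off, the coefficient of variation of Malat1 was 0.692, 0.749 and 0.779, at percentiles 95.1, 94.0 and 96.8 of those genes. The same measure for Neat1 was 1.17, 0.834 and 0.881, at percentiles 99.6, 96.7 and 98.2. These ranks describe the libraries and take no account of sampling error.

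In each library both RNAs made up a larger share of the UMIs in cells with a high mitochondrial share. Mitochondrial UMIs were left out of the denominator here, since they sort the cells. The CPM of Malat1 over non-mitochondrial UMIs was 3725, 3256, 3015, 4052, 5686 and 12200 in control cells of 0 to 2, 2 to 3, 3 to 4, 4 to 5, 5 to 10 and 10 to 20% mitochondrial UMIs. At 3 h the same classes held 4293, 3638, 3406, 3716, 4864 and 8469, and at 6 h 2630, 2369, 2199, 2679, 4334 and 6983. In all 3 libraries the lowest level was in cells of 3 to 4%, and the highest in those of 10 to 20%. In the 7 barcodes at 3 h that were left out for more than 20% mitochondrial UMIs, Malat1 stood at 6883 (5730 to 8201).

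Neat1 followed a similar course without the dip. Its CPM over non-mitochondrial UMIs was 62.7, 68.3, 82.4, 89.4, 133 and 244 in the control, 82.0, 93.2, 106, 118, 154 and 297 at 3 h, and 109, 123, 124, 120, 212 and 467 at 6 h. It was lowest in cells under 2% and highest in cells of 10 to 20% in every library. The order of the libraries held within the classes: Malat1 was lowest at 6 h in each of the 6 classes, and Neat1 was lowest in the control in each, with counting intervals that overlap those of 3 h in 3 classes. Malat1 was higher at 3 h than in the control in the 3 classes under 4% and lower in the 3 above it.

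Cells of 10 to 20% were few, 26 (control), 124 (3 h) and 50 (6 h). Against cells under 5% their Malat1 level was 3.78-fold higher in the control, 2.35-fold at 3 h and 2.95-fold at 6 h. Their Neat1 level was 3.28-fold, 2.92-fold and 3.84-fold higher, from 80, 130 and 53 Neat1 UMIs. In UMIs per cell they did not hold more Malat1, with means of 154, 29.9 and 15.8 against 165, 47.3 and 19.98 in cells under 5%. Neat1 averaged 3.08, 1.05 and 1.06 UMIs in them, against 3.77, 1.33 and 1.02. As a share, both RNAs were past 2-fold in every library, but so were many genes: of 3090 genes averaging 50 CPM or more, 21.3% were higher and 17.1% lower in the control, 33.6% and 12% at 3 h, and 25.9% and 19.8% at 6 h. Malat1 stood at percentiles 98.4, 74.3 and 89.7 of these genes and Neat1 at 95.9, 87.3 and 97.3.

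Other RNAs moved with the mitochondrial share too. Of 4 other nuclear lncRNAs at this level, 3 were past 2-fold upward in control cells and all 4 in either treated library, with median log2 ratios of 1.64, 1.43 and 1.51. Summed ribosomal protein mRNAs, which are cytoplasmic, were 2.62-fold, 2.98-fold and 3.05-fold lower. The cells of 10 to 20% were also shallow, with a median of 13515.5, 3816.5 and 2421 UMIs against 48905, 12467 and 8139 in cells under 5%. All of them lay in the lowest quintile of the cells by UMIs. Within that quintile alone the Malat1 ratio was larger, 4.54-fold, 2.59-fold and 3.36-fold, and that of Neat1 4.17-fold, 3.24-fold and 4.70-fold. The cells under 5% in that quintile were still deeper than those of 10 to 20%, with medians of 34199, 7259 and 4443 UMIs. What part depth or loss of cytoplasmic RNA has in these values was not tested.

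**Figure D4:**
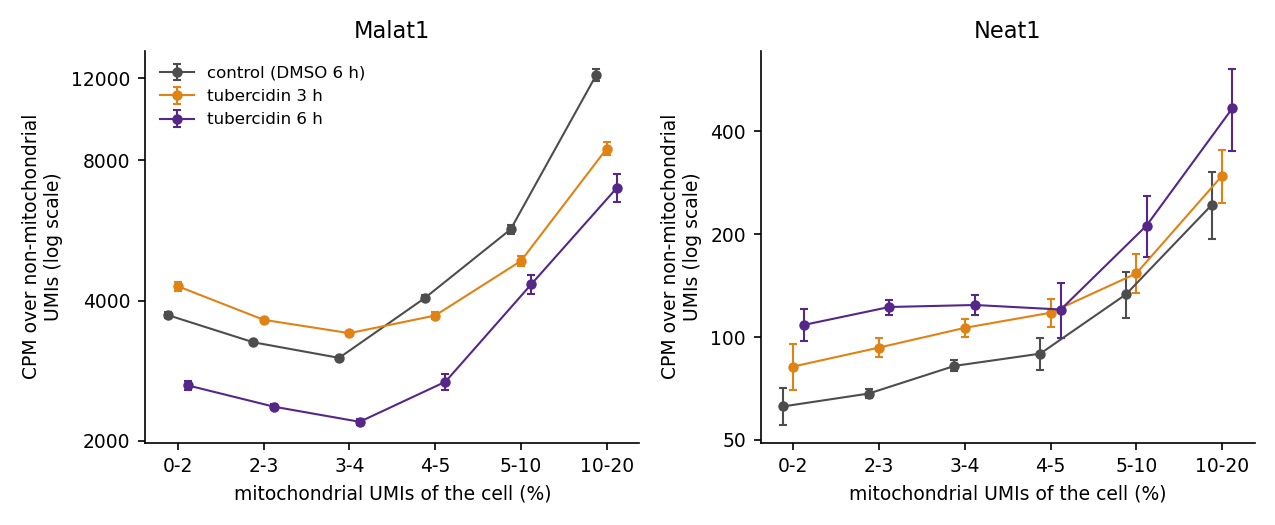
Level of Malat1 (left) and Neat1 (right) in CPM over non-mitochondrial UMIs (log scale), summed over the cells of each class of mitochondrial share, for the 3 libraries. Error bars are 95% Poisson intervals of counting error. Both RNAs are highest in the cells of 10 to 20% (Malat1 12200, 8469 and 6983; Neat1 244, 297 and 467, in the order control, 3 h, 6 h), and Malat1 has its lowest level at 3 to 4%.

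Because such cells were rare, they changed little in the sums. With cells over 10% left out, the log2 ratio of Malat1 at 3 h was 0.17 in place of 0.18. Over all cells the Spearman correlation of the level with the mitochondrial share was -0.01, 0.06 and 0.04 for Malat1 and 0.10, 0.10 and 0.06 for Neat1, over 2031, 2365 and 2926 cells that share a library. Over the 1961, 2051 and 2772 cells under 5% it was -0.079, -0.086 and -0.048 for Malat1, negative in each library, and 0.075, 0.058 and 0.022 for Neat1. All of these values are weak.

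Sorted by total UMIs, Malat1 was lowest in the next-to-shallowest quintile of the cells in each library and higher towards both ends. From the shallowest to the deepest quintile it stood at 3045, 2456, 2649, 3494 and 3727 CPM in the control, at 4526, 2927, 3179, 3746 and 3839 at 3 h, and at 2614, 1724, 1988, 2274 and 2840 at 6 h. Malat1 at 6 h was below the control in every quintile. At 3 h it was above the control in every quintile. Neat1 stood at 67.7, 65.7, 71.2, 83.2 and 71.7 CPM in the control, 138, 88.7, 103, 114 and 92.7 at 3 h, and 131, 88.4, 105, 134 and 133 at 6 h, above the control in each quintile at both times.

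Cells with more Malat1 tended to hold more Neat1. Thinned control cells in the lowest quintile by Malat1 averaged 0.162 Neat1 UMIs (0.125 to 0.206), and those in the highest quintile 0.505 (0.438 to 0.579). At 3 h the ends were 0.287 (0.240 to 0.341) and 0.650 (0.577 to 0.729), and at 6 h 0.244 (0.204 to 0.290) and 0.653 (0.586 to 0.726). The Neat1 mean went up at each step from quintile to quintile in every library. Pearson's r over thinned cells, on log2(UMIs + 1), was 0.19, 0.17 and 0.19. It is small, as sparse counts allow, but averaged over the libraries Malat1 had the highest r with Neat1 of the 989 genes compared, at 0.18 against a median of -0.02. Exoc4 (0.14), a subunit of the exocyst, Kansl1 (0.11) and Ncor1 (0.10), chromatin regulators, and Gm42418 (0.10) were next.

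For Malat1 the highest mean r belonged to Top2a (0.26), the topoisomerase of dividing cells. Exoc4 (0.21), Cenpf (0.20), a kinetochore protein of G2 and mitosis, and the chromatin regulators Jarid2 (0.14) and Kat6b (0.14) came next among 988 genes. Neat1, too sparse to be among those genes, had a mean r of 0.18 with Malat1. Lowest for both RNAs was the ribosomal protein gene Rpl41 (-0.22 for Malat1, -0.15 for Neat1). Malat1 averaged 10.8 UMIs (10.4 to 11.3) in thinned control cells without a Top2a UMI and 14.6 (14.3 to 14.9) in those with at least 4. At 3 h these means were 11.1 (10.8 to 11.3) and 23.7 (23.1 to 24.3), and at 6 h 6.31 (6.07 to 6.55) and 11.8 (11.5 to 12.1). The step from few to many Top2a UMIs was largest at 3 h. Cells with at least 4 Top2a UMIs were also deeper before thinning, with medians of 55935, 13002.5 and 9792.5 UMIs against 40476, 11279 and 7270, and the part of depth was not tested. The Top2a classes were drawn after the correlations had been seen.

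Over the 3 libraries, a few genes had almost the same pair of log2 ratios at 3 h and 6 h as each RNA. Nearest to Malat1 among 3064 genes of at least 50 CPM, by Euclidean distance, was Meg3, another nuclear lncRNA, at 179, 202 and 131 CPM (distance 0.016). Arpc3, an actin branching subunit, Hax1, Nup43, a nuclear pore protein, and the translation factor subunit Eif3m followed within 0.055. Nearest to Neat1 were Wdtc1, Nudcd3, Rasgrp2, the RNA polymerase subunit Polr2f and the lipid kinase Pikfyve, all within 0.064. Within a distance of 0.2 there were 55 genes for Malat1 and 70 for Neat1, so neither pattern stood alone.

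The genes around Malat1 and Neat1 were compared as lists, whose medians are read against the median of all genes, since a scaling shifts both. With median-of-ratios factors the medians at 3 h of the paraspeckle, speckle and 3′ end lists below turn to 0.03, 0.11 and 0.09, and Ftx and mt-Nd3 no longer reach 2-fold there.

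The other nuclear-enriched lncRNAs did not share 1 direction. Of 13 listed, 8 had a mean of at least 10 CPM, and none was 2-fold higher at either time. At 3 h 2 were 2-fold lower and at 6 h 1, where 5.54% and 4.41% of all genes were. The median log2 ratios were -0.33 and -0.51 against -0.27 and -0.12 for all genes. Kcnq1ot1, the imprinted antisense RNA, stood at 139, 50.1 and 41.6 CPM in the same order of libraries (log2 -1.46 and -1.72). Ftx, from the X inactivation centre, was 2-fold lower at 3 h only, at 17.0, 7.90 and 11.1 CPM, and was named after its value was seen. Pvt1, the neighbour of Myc, was at 118, 91.2 and 196 CPM (-0.37 and 0.73), opposite to Malat1 at both times. Tsix was at 77.3, 85.1 and 103 CPM (0.14 and 0.41) and Rian at 47.6, 30.7 and 28.6 CPM (-0.61 and -0.71).

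Of the paraspeckle proteins that assemble on Neat1, 28 of 32 listed could be compared. None was past 2-fold at 3 h, and 1 was 2-fold lower at 6 h, a share near the 4.41% of all genes. The medians were -0.21 and -0.24 on the log2 scale. That member was Rbm7, an adaptor of the nuclear exosome, at 40.1, 20.3 and 16.2 CPM. Hnrnpk, which favours the long form of Neat1, was at 574, 382 and 359 CPM (log2 -0.59 and -0.68). Smarca4, a chromatin remodelling enzyme needed for paraspeckles, was at 141, 153 and 216 CPM (0.12 and 0.61), and Dazap1 at 113, 150 and 156 CPM (0.41 and 0.47). The mRNAs of the paraspeckle list thus lay near the median of all genes while Neat1 lay above it.

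Among 21 nuclear speckle proteins, 1 was 2-fold lower at 3 h, though not with median-of-ratios factors, a share near the 5.54% of all genes, and none was past 2-fold at 6 h. The list's medians were -0.12 and 0.04. Srsf11 stood at 226, 336 and 337 CPM and Acin1 at 271, 279 and 371 CPM, the highest log2 ratios at 6 h (0.58 and 0.45). Pnn stood at 253, 146 and 185 CPM and Srsf7 at 454, 334 and 245 CPM, the lowest (-0.45 and -0.89). The list's median stood 0.15 and 0.16 above that of all genes, which leaves Malat1 above it at 3 h and below it at 6 h.

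Factors that make or guard the 3′ ends of both RNAs were compared as a list of 20, with RNase P subunits, tRNA end enzymes, the triple-helix binder Mettl16 and the proteins that choose between the Neat1 forms. At 3 h 1 was 2-fold lower and at 6 h 2, against 5.54% and 4.41% of all genes, and none was 2-fold higher. The medians were -0.15 and -0.22. Both members at 6 h are RNase P and MRP subunits: Rpp38 was at 28.1, 10.1 and 4.50 CPM (log2 -1.39 and -2.41) and Pop7 at 29.0, 17.0 and 11.9 CPM (-0.74 and -1.22). Other subunits went the other way, with Rpp21 at 54.3, 66.5 and 78.2 CPM (0.29 and 0.52) and Rpp25 at 35.8, 43.2 and 49.96 CPM (0.26 and 0.47).

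Neat1 is a known p53 target, so p53 and its targets were compared as well. Of 22 compared, none was past 2-fold at 3 h and 8 were 2-fold higher at 6 h, where 2.33% of all genes were. The list's medians were 0.11 and 0.53, against -0.27 and -0.12 for all genes. Mdm2, the ligase that degrades p53, stood at 85.3, 88.5 and 243 CPM (log2 0.05 and 1.501), and the polymerase gene Polk at 28.7, 41.2 and 87.3 CPM (0.51 and 1.57). Trp53 itself was at 305, 215 and 247 CPM and Btg2 at 12.8, 10.3 and 9.48 CPM, the lowest of the list at 6 h. Neat1, at 0.50 and 0.72, was above the list's median at both times.

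The ribosomal protein and mitochondrially encoded genes, used above to describe the cells, had medians of 0.30 and 0.21 at 3 h and of 0.07 and 0.02 at 6 h. Of 84 ribosomal protein genes 1 was 2-fold higher at each time (Rps15, 2027, 4194 and 4585 CPM) and 1 was 2-fold lower at 6 h (Rpl9, 1822, 1569 and 874 CPM). The shares of all genes were 0.888% and 2.33% upward and 4.41% downward at 6 h. Of 13 mitochondrially encoded genes 1 was 2-fold higher (mt-Nd5, 269, 768 and 672 CPM) and 1 was 2-fold lower (mt-Nd3, 444, 221 and 219 CPM), at both times.

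The stretch of chromosome 19 around Malat1 and Neat1 did not move as a block. Within 200 kb of either gene 25 other genes are annotated, of which 18 had a mean of at least 1 CPM. Their median log2 ratio was 0.01 at 3 h and 0.02 at 6 h. The medians of -0.27 and -0.12 over all genes are for genes of at least 10 CPM, most of which were thus below 0. Only 11 of the 18 neighbours reach that level, so these medians are not compared with those of the neighbours. Of the 18 neighbours, 10 were above 0 and 8 below it at each time. Frmd8os was the only one past 2-fold, at 3 h. Of all 13587 genes of at least 1 CPM, 1.6% were 2-fold higher and 6.2% lower at 3 h, and 4.56% and 5.11% at 6 h. Frmd8os is annotated antisense on the plus strand, 145 bases from the start of Neat1, and stood at 0.991, 3.18 and 1.70 CPM from 104, 95 and 42 UMIs (log2 1.07 and 0.44). Frmd8, which it overlaps, was at 13.6, 14.0 and 12.6 CPM. Reads of overlapping antisense genes may be shared between them if strand was not used in counting, which is not given in the sources used here.

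On the Malat1 side, Ltbp3 (0.03 and 0.30), Znrd2 (0.43 and 0.51), Ehbp1l1 (0.35 and 0.54), Sipa1 (0.08 and 0.12), Rela (0.32 and 0.05) and Rnaseh2c (0.54 and 0.26) had log2 ratios above 0 at both times. Fam89b (-0.49 and -0.38) and Pcnx3 (-0.24 and -0.58) were below 0 at both, and Map3k11 (-0.19 and 0.02) and Kat5 (0.01 and -0.21) changed sign. On the Neat1 side Dpf2 (-0.17 and -0.39), Cdc42ep2 (-0.41 and -0.16) and Pola2 (-0.41 and -0.53) were below 0 at both times. Gm42067 (-0.30 and 0.01) and Frmd8 (0.04 and -0.11) changed sign, and Capn1 stood at 0.01 and 0.42. In this window Neat1 had the highest ratio at 6 h, and only Pcnx3 and Pola2 were lower than Malat1.

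**Figure D5:**
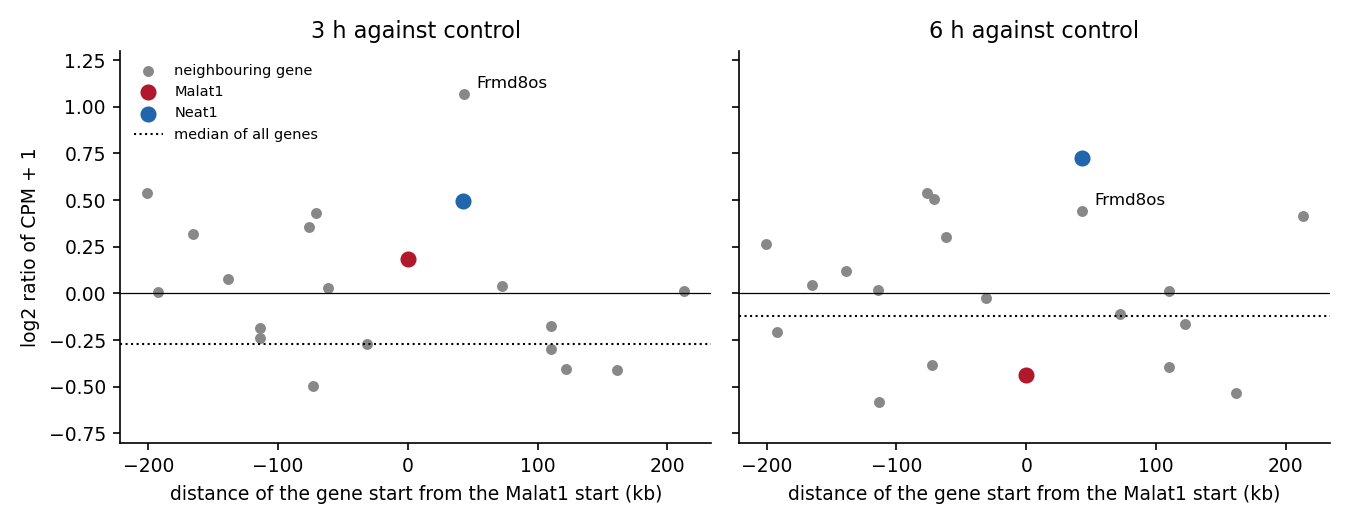
Log2 ratio of CPM + 1 at 3 h (left) and 6 h (right) against the control for Malat1 (red), Neat1 (blue) and the 18 other genes within 200 kb with a mean of at least 1 CPM (grey), by distance of the gene's start from the start of Malat1 in kb, positive towards Neat1. The dotted line is the median of all genes of at least 10 CPM, a level that only 11 of the 18 reach. The grey points scatter around 0 at both times. Frmd8os, at 1.07 at 3 h, is the only one past 2-fold.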

How the data were processed

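The authors deposited unfiltered whole-number UMI counts for each gene in each barcode, made with Cell Ranger 7.1.0 on mm10 per the submitters' processing notes. Annotation release and the treatment of introns are not given in the sources used here. A barcode was called a cell when its UMIs reached 1/10 of the value at percentile 99 among the 3000 deepest barcodes of its library (11034, 2961 and 2107 UMIs for control, 3 h and 6 h) and it had 500 genes or more. Barcodes with over 20% mitochondrial UMIs were then dropped (0, 7 and 1). Doublets were kept and no clusters were made.

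UMIs were summed over cells and scaled to CPM with Python 3.11.15, numpy 2.4.6, pandas 2.3.3 and scipy 1.17.1, and TMM factors came from edgeR 4.0.16 in R 4.3.3. Log2 ratios use a pseudocount of 1 CPM over the 7884 genes averaging 10 CPM or more. Shares of UMIs have exact Poisson intervals, ratios exact conditional binomial intervals and shares of cells Clopper-Pearson intervals. Thinning drew 4000 UMIs per cell without replacement. No test was run, since each condition is 1 library. The scripts were tested on simulated data.

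The members and all gene lists were chosen with earlier results of these data known. Named were both members, the 2 highest and 2 lowest of each list at 6 h among those averaging 10 CPM, every neighbour averaging 1 CPM, and the 5 genes most alike each member; predicted-gene names were left out of the likeness across libraries. Some genes that this rule names are not reported here. Transcript sequences and positions are from GENCODE M21 (GRCm38). Scalings, cell filters, free-RNA ranks, thinning depth and mitochondrial classes were varied as described in the closing section.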

Additional observations from a re-analysis of the deposited data

Results flagged for a closer look

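Malat1 stood above the control at 3 h (log2 0.18) and below it at 6 h (-0.44), with counting intervals on opposite sides of 0. Pvt1, a nuclear lncRNA beside Myc, stood the other way, at -0.37 and 0.73. Both comparisons use the same control library. The difference between the times was not tested, since each is 1 library, and it cannot be told apart from differences between cultures.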

How the results depend on the processing

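Of 216 values recomputed under an alternative, 102 stayed within their interval or within 1.5 times their count, and 108 moved past it. For coefficients of variation and Fano factors, the range over the draws of the thinning stood in for a counting interval. Their lowest and highest other draws thus count among the 102 by construction. Of the 108, 2 moved to the other side of 0 from a value whose interval included 0. Another 6 changed sign from a value whose interval did not, so that 8 in all changed sign. At 3 h against the control, median-of-ratios and TMM factors moved both RNAs past their counting intervals. At 6 h they left Neat1, at 0.74 and 0.69, within its interval of 0.67 to 0.79. The spread between cultures is not known with 1 library each. No paired analysis was possible because each condition has 1 library and the labels carry no replicate numbers. No value came from the middle of the cells by UMIs (percentiles 25 to 75), which holds no cell of 10 to 20% mitochondrial UMIs. The comparison within the lowest quintile by UMIs was chosen after seeing the data. The cause was not tested for any of these shifts.

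For Malat1 at 3 h, at 6 h and between them, median-of-ratios factors gave log2 ratios of 0.42, -0.42 and -0.84, TMM factors 0.37, -0.47 and -0.84, UMIs per cell -1.85, -3.05 and -1.20, removal of cells above 2 times the median UMIs 0.20, -0.46 and -0.66, and free RNA subtracted at 10% 0.20, -0.40 and -0.60. Equal weight per cell gave 0.24 at 3 h and -0.67 from 3 h to 6 h, and at 3 h double the UMI minimum gave 0.16 and a limit of 10% mitochondrial UMIs 0.17. For Neat1, median-of-ratios gave 0.74 at 3 h and 0.00336 from 3 h to 6 h, TMM 0.69 and 0.00696, and equal weight 0.60 and 0.12. UMIs per cell turned Neat1 to -1.52 (3 h against control), -1.86 (6 h against control) and -0.35 (6 h against 3 h).

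Genes 2-fold higher and lower at 3 h (70 and 437) became 226 and 855 without a filter, 22 and 95 at a mean of 50 CPM, 139 and 166 with median-of-ratios, 126 and 202 with TMM, and 6 and 7803 per cell. At 6 h (184 and 348) they became 679 and 707 without a filter, 42 and 75 at 50 CPM, and 6 and 7825 per cell. From 3 h to 6 h (129 and 13) they became 389 and 33 without a filter, 23 and 4 at 50 CPM, 57 and 45 with both factors, and 9 and 272 per cell.

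For free RNA against cells, barcodes ranked after 10000 and up to 30000 gave Malat1 0.0393 in the control, a change of sign, and 0.00607 at 3 h. All barcodes ranked after 15000 gave Neat1 0.53 (control), 0.53 (3 h) and 0.43 (6 h), above the cells, where the barcodes used had it below them, and Malat1 -0.13 at 6 h.

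Thinned to 2000 UMIs, Malat1 had a UMI in 97.98%, 95.8% and 88.3% of the control, 3 h and 6 h cells, with coefficients of variation of 0.806, 0.893 and 0.986, and Neat1 in 11.7%, 18.9% and 19.4%, with 3.06, 2.31 and 2.32. Without thinning the shares were 99.85%, 99.96% and 97.3% for Malat1, with coefficients of 0.787, 0.832 and 0.979, and 76.4%, 61.6% and 49.6% for Neat1, with 1.42, 1.26 and 1.504. Among 10 other draws the lowest control shares were 98.97% for Malat1 and 19.99% for Neat1.

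For cells of 10 to 20% against under 5% mitochondrial UMIs (control, 3 h, 6 h), Malat1 in CPM of all UMIs had log2 ratios of 1.76, 1.08 and 1.41, a lower UMI minimum gave 1.72, 1.10 and 1.15, and the lowest quintile by UMIs 2.18, 1.38 and 1.75. The highest quintile by mitochondrial share against the other cells gave only 0.16, 0.42 and 0.15 for Malat1 and 0.43, 0.66 and 0.29 for Neat1. A lower UMI minimum gave Neat1 1.33 at 6 h, and the lowest quintile by UMIs gave it 2.06 in the control.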
